A study of Mus musculus with 17 samples.

Results

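The genes described here belong to the machinery by which the endoplasmic reticulum (ER) folds secreted and membrane proteins, and to the unfolded protein response that adjusts this machinery. The list held 44 genes, matched to the array annotation by current or former symbol, of 19057 genes named on the array. They were divided by role into 27 genes of the secretory machinery (11 chaperones and lectins, 9 disulfide isomerases and oxidases, 7 parts of the translocon), 7 of ER-associated degradation, 5 sensors and transcription factors and 5 stress effectors. A probe was found for 43 of the 44, on 80 probes in all. Dnajb11, a J-domain partner of the chaperone Hspa5, had none. Ero1l was listed under its current symbol Ero1a.

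RNA came from the remote left ventricular wall, posterior and inferior, of female C57/BL6 mice (C57BL/6N in the methods) that were 8 to 10 weeks old on entering the study, and was taken at week 4 after surgery. The 6 sham mice had surgery without ligation, the 6 MI mice had ligation of the left anterior descending coronary artery and drank water only, and the 5 MI+Val mice had the same ligation and drank valsartan, which blocks the type 1 receptor of angiotensin II, at 1 mg/kg/day. Infarcted mice had been admitted to the study only within a set window of ejection fraction on day 1 after ligation, so both infarcted groups are selected survivors. Each mouse gave 1 array (MouseWG-6 BeadChip), and the arrays lay on 3 chips: chip 1 held 4 MI, 1 sham and 1 MI+Val array, chip 2 held 1, 3 and 2, and chip 3 held 1, 2 and 2. Values are log2 of the bead signal after background correction and quantile normalization, and differences are log2 differences from 1 limma model of the 3 groups.

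Nascent secretory proteins enter the ER through the Sec61 channel, are held by chaperones such as Hspa5 and by the lectins Calr and Canx, and receive their disulfide bonds from the protein disulfide isomerases. When unfolded proteins accumulate, the sensors Ern1, Eif2ak3 and Atf6 act through splicing of Xbp1 mRNA, translation of Atf4 and cleavage of Atf6 itself, and the resulting transcription factors raise the mRNA of chaperones, of degradation factors and, under sustained stress, of effectors such as Ddit3 and Chac1. Cardiomyocytes, fibroblasts and macrophages all use this machinery, and collagen-secreting fibroblasts use it heavily. The arrays read mRNA abundance, not splicing, translation or cleavage.

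Of the 44 genes, 34 had a probe bright enough to be tested among 8236 genes, a filter that required the 33rd percentile of signal to reach the minimum set in the methods. All 7 genes of the translocon and all 5 stress effectors passed, with 7 of 11 chaperones and lectins, 7 of 9 isomerases and oxidases, 5 of 7 degradation genes and 3 of 5 sensors and transcription factors. The 9 genes that did not pass were Hyou1, Canx, Manf, Erp44, Ero1l, Edem1, Derl1, Eif2ak3 and Atf6. Their probes were detected at p under 0.01 on 0 to 3 of the 17 arrays, so for the sensors Eif2ak3 and Atf6 and for the lectin Canx no level is given. Manf, an ER-resident and secreted protein that binds Hspa5, had a signal of 84.5 to 124.2 and was detected on 0 arrays.

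Across the 17 arrays, 13929 to 15206 probes were detected and the median signal ran from 90 to 120.3, with MI mouse 1 lowest on both. Of the markers of heart tissue that were listed, 9 of 10 cardiomyocyte genes were measured, at a mean log2 level of 11.67 to 12.17 over all mice, and 0 of 9 were called between MI and sham. Of these 9, 7 lay below 0 in MI minus sham (median -0.24, 3 at an unadjusted p under 0.05) and 7 above 0 in MI+Val minus MI (median 0.18). Endothelial markers (7 measured) had a median of 0.03 in MI minus sham, with 0 called. Smooth muscle and pericyte markers (5 measured) had -0.27, with 1 above 0, 4 below and 0 called. In MI+Val minus MI all 5 of the latter were above 0 (median 0.17). Of the fibroblast markers 9 of 9 measured were above 0 in MI minus sham and 2 were called (Tcf21 and Vim). Of the macrophage markers 9 of 9 were above 0 and 6 were called, where 5.63% of all genes tested were called. With the chip as a fixed block, Vim (adjusted p = 0.0359 in limma) and Lyz2 (0.0322) stayed under 0.05. The other called markers did not: Tcf21 had 0.0649, Csf1r 0.0604, and C1qa, C1qb, C1qc and Cd14 had 0.155 to 0.252. The plasma cell and B cell list had 1 measured gene, Mzb1, which was lower in MI (log2 difference -0.64, adjusted p = 0.0367 in limma). Its probe was dim, with a signal of 129.2 to 170.9 in sham and 102.8 to 146.6 in MI mice, which limits this difference. For T cells, 0 of 5 genes with a probe passed the filter on signal. In bulk tissue, fewer cells of a type and less RNA per cell cannot be told apart.

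The promoters of these genes show which of them carry letters that the response is known to act through. Motifs were searched on both strands in RefSeq promoter windows of GRCm38.p6, from 250 bases before to 50 after a transcription start, and 37 of the 44 genes had a window. The ER stress response element (ERSE), CCAAT and CCACG separated by 9 bases, is bound by NF-Y and by Atf6 or Xbp1. It lay in 8 of these 37 genes (Calr, Canx, Creld2, Dnajc3, Hsp90b1, Hspa5, Pdia6 and Syvn1), and in 0.137% of all 27025 genes with a window. Capitals mark the letters of the element, with 10 bases on each side, read 5′ to 3′ on the strand of the gene, and elements that lie in the reverse orientation read CGTGG before ATTGG.
Hspa5: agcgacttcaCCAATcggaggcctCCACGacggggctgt
Hsp90b1 distal: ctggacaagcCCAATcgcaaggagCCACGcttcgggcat
Hsp90b1 proximal: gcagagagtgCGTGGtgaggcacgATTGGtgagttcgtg
Pdia6: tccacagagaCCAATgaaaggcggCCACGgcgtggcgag
Dnajc3: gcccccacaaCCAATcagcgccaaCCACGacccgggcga
Syvn1: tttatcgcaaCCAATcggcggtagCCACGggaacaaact
Calr: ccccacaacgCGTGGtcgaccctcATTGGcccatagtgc
These stretches lie at chr2:34772015-34772053 on the plus strand (Hspa5), chr10:86705628-86705666 and chr10:86705523-86705561 on the minus strand (Hsp90b1), chr12:17266481-17266519 on the plus strand (Pdia6), chr14:118937817-118937855 on the plus strand (Dnajc3), chr19:6046522-6046560 on the plus strand (Syvn1) and chr8:84847065-84847103 on the minus strand (Calr).

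A second set of letters lay mostly in other genes of the list, 3 of the stress effectors among them. The composite element read by Atf4 with a C/EBP partner, TGATGNAA or its reverse complement, lay in 5 genes (Asns, Chac1, Herpud1, Trib3 and Txndc5) and in 4.51% of all genes with a window. The ERSE-II, ATTGG and CCACG separated by 1 base, lay in Herpud1 and Dnajb11 and in 0.0444% of all genes with a window. The letters TGACGTGG, the unfolded protein response element, lay in Txndc5 and in 0.714% of all genes with a window. In Herpud1 the ERSE-II and the composite element do not overlap.
Asns composite: cccagccacaTGATGaAActtcccgcac
Chac1 composite: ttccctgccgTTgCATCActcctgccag
Herpud1 composite: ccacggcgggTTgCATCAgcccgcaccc
Herpud1 ERSE-II: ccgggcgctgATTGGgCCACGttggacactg
They lie at chr6:7693215-7693242 on the minus strand (Asns), at chr2:119351039-119351066 on the plus strand (Chac1), and at chr8:94386307-94386334 and chr8:94386367-94386397 on the plus strand (Herpud1). A match of letters is a description and not a binding site shown to be used.

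Between infarcted and sham hearts no single gene of the ER machinery passed the test, and the differences lay on both sides of 0. Of the 34 measured genes, 0 were called between MI and sham at an adjusted p under 0.05 in limma, against 464 of all 8236 genes tested (5.63%). At an unadjusted p under 0.05 there were 2, P4hb and Ssr1, where all genes gave 19.7%, and 1 gene had MI values that did not overlap sham values, where all genes gave 3.55%. The median difference was 0.03 over the 34 genes and -0.01 over all genes tested, and the median size of a difference was 0.12 against 0.14. The 34 differences ran from -0.21 (Hspa5) to 0.63 (Chac1), with 18 above 0 and 16 below.

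The comparison of valsartan-treated with untreated infarcted mice gave 0 calls among the 34 genes, with a background of 0% over all genes tested. At an unadjusted p under 0.05 there was 1, P4hb, against 9.23% of all genes. Between MI+Val and sham there were 0 calls among the 34 (0.0121% of all genes were called) and 0 at an unadjusted p under 0.05, against 7.25%. limma's F test over the 3 groups called 0 of the 34 at an adjusted p under 0.10, against 4.8% of all genes, and gave 1 at an unadjusted p under 0.05, against 15.7%. The comparisons of MI with sham and of MI+Val with MI share the MI mice. Their differences had opposite signs for 26 of the 34 genes, and for 6147 of all 8236 genes tested.

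**Figure D1:**
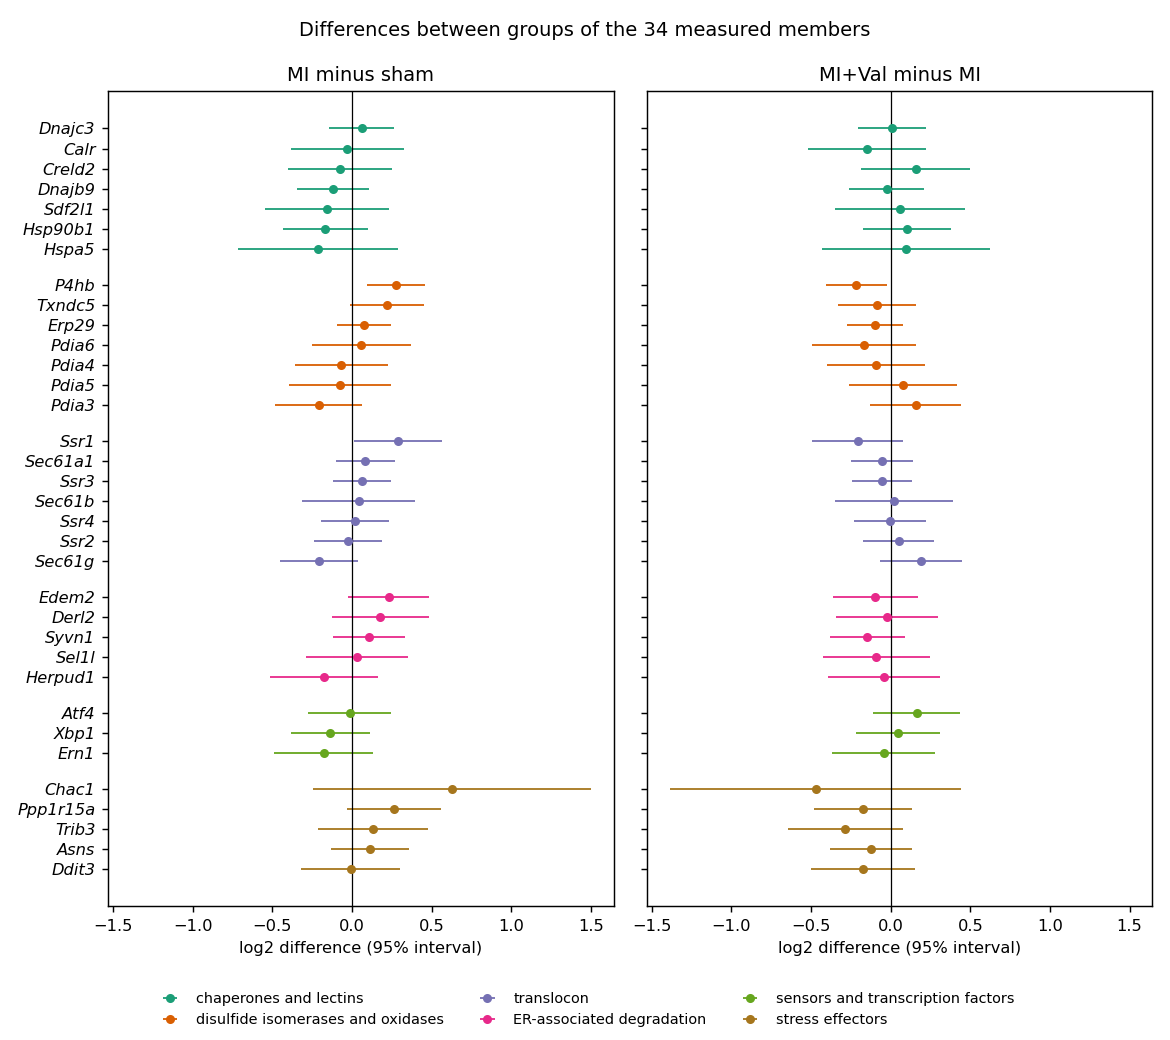
Log2 difference (x axis) of each of the 34 measured genes (rows, grouped and coloured by role), MI minus sham on the left and MI+Val minus MI on the right. Points are limma estimates and bars are 95% intervals. For MI minus sham the intervals of P4hb (0.09 to 0.46) and Ssr1 (0.02 to 0.56) lie above 0, and Chac1 has the widest interval. The 5 stress effectors all lie below 0 in MI+Val minus MI, as do 4029 of all 8236 genes tested.

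**Figure D2:**
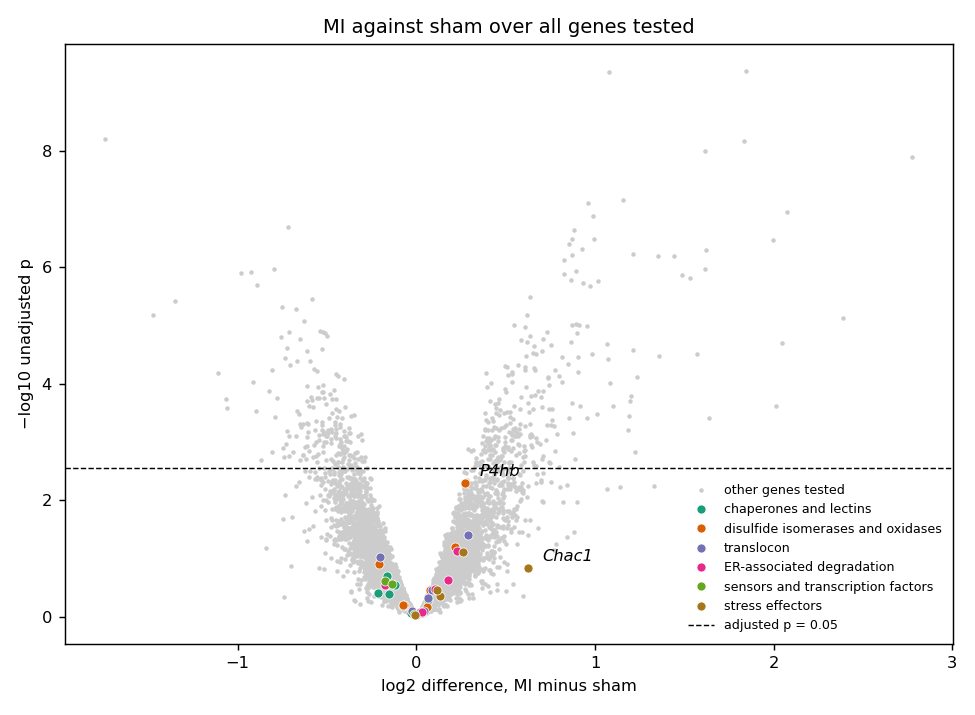
Log2 difference between MI and sham (x axis) against −log10 of the unadjusted p from limma (y axis) for all 8236 genes tested (grey), with the 34 genes coloured by role. The dashed line marks an adjusted p of 0.05, and the 34 genes all lie below it, with P4hb nearest to the line.

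The secretory machinery, 21 measured genes of 27, was split evenly, with 10 genes above 0 and 11 below in MI minus sham and a median of -0.02. Its 3 roles differed in where their medians lay. The chaperones and lectins had a median of -0.12 with 1 gene above 0 and 6 below, the isomerases and oxidases 0.06 with 4 above and 3 below, and the translocon 0.04 with 5 above and 2 below. None of these medians is a test, and the chaperone count became 3 above and 4 below with the chip as a fixed block.

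Among the chaperones, Hspa5 encodes BiP, the Hsp70 of the ER lumen and the usual readout of the unfolded protein response. Its log2 value ran from 5.27 to 6.44 in sham mice (median 6.23) and from 4.96 to 6.22 in MI mice (median 5.91), and was 5.31, 5.99, 5.67, 6.56 and 6.01 in the 5 MI+Val mice. The groups overlapped over most of their range, and the lowest values were those of MI mouse 1 and sham mouse 2. The difference was -0.21 for MI minus sham (SE 0.24, 95% interval -0.71 to 0.29, adjusted p = 0.680) and 0.10 for MI+Val minus MI (-0.43 to 0.62). Single mice moved the first of these to -0.04 (without MI mouse 1) and to -0.36 (without sham mouse 2). The Hspa5 probe was dim, with a bead signal of 96.1 to 188.2 and detection on 16 of 17 arrays, which limits the precision of this gene, and whether this probe reads Hspa5 mRNA in full was not tested.

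Hsp90b1, the ER form of Hsp90 and the gene with a pair of ERSEs above, was read by a bright probe detected on all 17 arrays. It ran from 11.60 to 12.14 in sham (median 11.84), from 11.40 to 11.96 in MI (median 11.65), and was 11.56, 11.65, 11.67, 12.13 and 11.91 in MI+Val. MI mice were on average lower by less than the spread within a group (SD 0.21 in sham and 0.23 in MI). The difference was -0.17 (SE 0.13, 95% interval -0.43 to 0.10, adjusted p = 0.503), and 0.10 for MI+Val minus MI (-0.18 to 0.38), which became 0.02 without MI+Val mouse 4.

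Sdf2l1, an ER stress-inducible partner of the J-domain proteins, ran from 5.88 to 6.74 in sham (median 6.37), from 5.88 to 7.04 in MI (median 6.08), and was 6.01, 5.96, 6.18, 6.62 and 6.53 in MI+Val. The groups overlapped, and MI mouse 3 at 7.04 stood above the other MI mice, which reached 6.27. The difference was -0.15 (SE 0.19), and -0.32 without that mouse. The remaining chaperones lay nearer to 0. Dnajb9, a J-domain cofactor that holds the sensor Ern1 in check, had -0.12, and its second probe 0.01. Calr, a lectin that retains glycoproteins for folding, had -0.03 (95% interval -0.38 to 0.32). Creld2, an ER stress-inducible protein, had -0.07, and Dnajc3, an inhibitor of Eif2ak3 and cofactor of Hspa5, had 0.06. In MI+Val minus MI these chaperones ran from -0.15 (Calr) to 0.16 (Creld2), and Calr reached its lowest value, 7.27, in MI+Val mouse 1, where the other MI+Val mice lay between 8.09 and 8.32.

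P4hb, protein disulfide isomerase and also a subunit of the prolyl hydroxylase that modifies procollagen, was the one gene of the 34 whose MI and sham values did not overlap. Its log2 value ran from 11.62 to 11.82 in sham (median 11.78) and from 11.85 to 12.18 in MI (median 12.03), and was 11.87, 11.61, 11.85, 11.71 and 11.98 in MI+Val. The MI+Val mice spread from the bottom of the sham range to within the MI range. The mean was 11.75 ± 0.09 (SD, n = 6) in sham, 12.02 ± 0.12 (n = 6) in MI and 11.81 ± 0.15 (n = 5) in MI+Val mice.

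For P4hb the difference was 0.27 for MI minus sham (1.21-fold, SE 0.09, 95% interval 0.09 to 0.46, unadjusted p = 0.00503, adjusted p = 0.0706 in limma), which missed the threshold. For MI+Val minus MI it was -0.22 (SE 0.09, 95% interval -0.41 to -0.03, unadjusted p = 0.0283, adjusted p = 0.479), and for MI+Val minus sham 0.06 (-0.13 to 0.25). Within chips 1, 2 and 3 the P4hb difference between MI and sham was 0.35, 0.29 and 0.27. Such differences within a chip, here and for other genes, rest on single arrays. Chip 1 held 1 sham array, and chips 2 and 3 held 1 MI array each. The mean of the MI+Val mice lay below that of the MI mice on each chip, by differences of -0.14, -0.37 and -0.13, though single mice of both groups overlapped on chips 1 and 3. The call depended on the processing: with no background correction the difference was 0.27 at an adjusted p of 0.0243, with the authors' log2 values 0.26 at 0.0357, with scaling to the 75th percentile 0.19 at 0.294, and with the chip as a fixed block 0.28 at 0.162. In the authors' log2 values sham mice ran from 11.58 to 11.82 and MI mice from 11.78 to 12.20, so the groups overlapped slightly there.

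The fibroblast and macrophage markers all lay above 0 in MI minus sham, as P4hb did. In MI+Val minus MI 0 of them were called, with 6 of 9 fibroblast markers below 0 (median -0.14) and 9 of 9 macrophage markers below 0 (median -0.27). The mean log2 level of the 9 fibroblast markers ran from 7.41 to 7.80 in sham, 7.86 to 8.09 in MI and 7.75 to 7.93 in MI+Val mice. That of the 9 macrophage markers ran from 7.99 to 8.47 in sham, 8.5 to 9.11 in MI and 8.42 to 8.72 in MI+Val mice. Their part in the P4hb difference was not tested.

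The other isomerases did not move with P4hb as one block. Pdia3, the isomerase that works with Calr and Canx, lay on the other side of 0. It ran from 10.42 to 10.98 in sham (median 10.77), from 10.09 to 10.72 in MI (median 10.63), and was 10.28, 10.77, 10.90, 10.94 and 10.64 in MI+Val. The groups overlapped, and MI mouse 1 at 10.09 lay below the other MI mice, the next of which was at 10.57. The difference was -0.21 (SE 0.13, 95% interval -0.48 to 0.06, adjusted p = 0.396), and 0.16 (-0.13 to 0.44) for MI+Val minus MI. Without MI mouse 1 these became -0.12 and 0.06.

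Txndc5, a thioredoxin-domain isomerase, was on the same side as P4hb. It ran from 8.48 to 8.87 in sham (median 8.62), from 8.66 to 9.28 in MI (median 8.80), and was 8.99, 8.60, 8.84, 8.81 and 8.66 in MI+Val. The 3 groups overlapped. The difference was 0.22 (SE 0.11, 95% interval -0.01 to 0.45, adjusted p = 0.288), and 0.13 both with the chip as a fixed block and without MI mouse 1. The remaining isomerases, Pdia4, Pdia5, Pdia6 and Erp29 (a member of the family without redox activity), lay between -0.08 and 0.08.

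**Figure D3:**
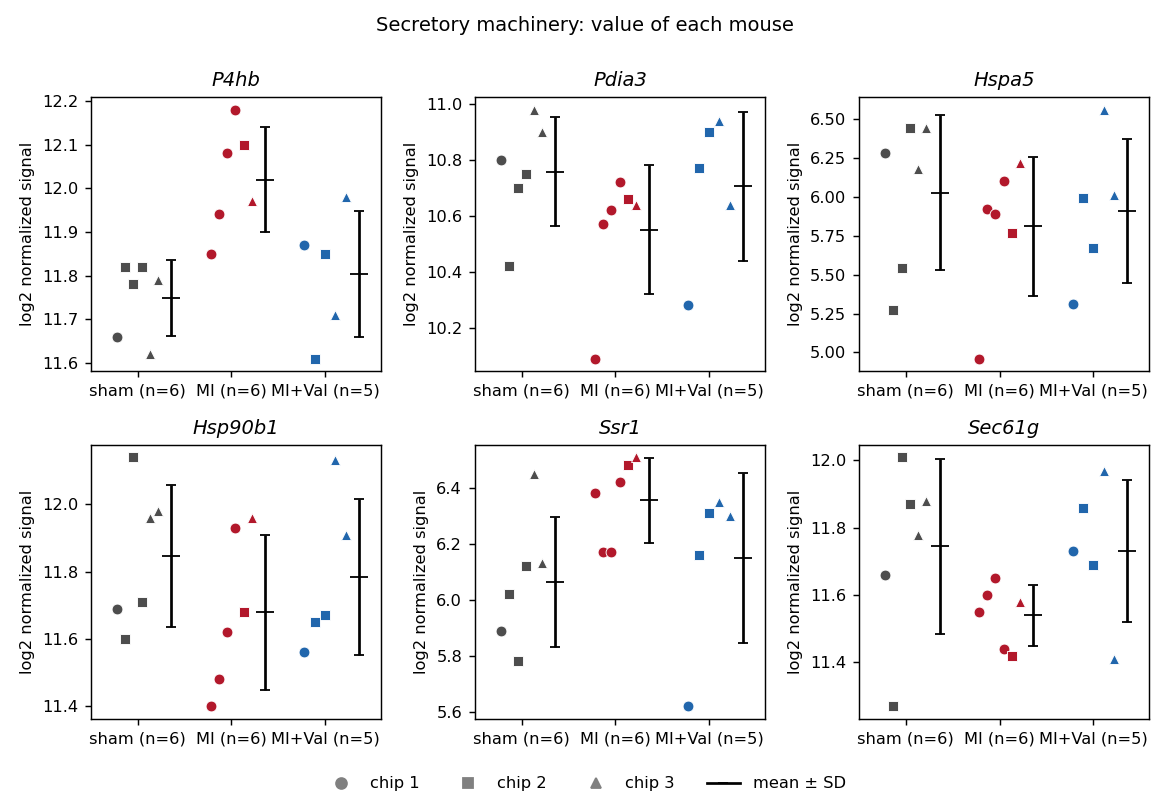
Log2 normalized signal (y axis) of 6 genes of the secretory machinery in each mouse, by group (x axis), with the chip as the marker shape and the mean ± SD as bars. P4hb in the 6 MI mice (11.85 to 12.18) lies above all 6 sham mice (11.62 to 11.82), and the groups overlap for Pdia3, Hspa5, Hsp90b1, Ssr1 and Sec61g.

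The translocon genes were all measured, and they did not shift together. Ssr1, a subunit of the translocon-associated protein complex beside the Sec61 channel, ran from 5.78 to 6.45 in sham (median 6.07), from 6.17 to 6.51 in MI (median 6.40), and was 5.62, 6.16, 6.31, 6.35 and 6.30 in MI+Val. One sham mouse lay within the MI range and the other 5 lay below it. The difference was 0.29 (1.22-fold, SE 0.13, 95% interval 0.02 to 0.56, unadjusted p = 0.0390, adjusted p = 0.225), and -0.21 (-0.49 to 0.08) for MI+Val minus MI, which became -0.07 without MI+Val mouse 1.

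With the chip as a fixed block the Ssr1 difference was 0.44 (adjusted p = 0.0568), and within chips 1, 2 and 3 it was 0.39, 0.50 and 0.22. The Ssr1 probe was dim (signal 123.4 to 213.1), and its difference in the authors' values was 0.09. The other subunits of the same complex, Ssr2, Ssr3 and Ssr4, had differences of -0.02, 0.06 and 0.02, each from a bright probe. Their 95% intervals lay between -0.24 and 0.24.

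Sec61g, the small gamma subunit of the channel, lay on the other side. It ran from 11.27 to 12.01 in sham (median 11.82), from 11.42 to 11.65 in MI (median 11.56), and was 11.73, 11.86, 11.69, 11.97 and 11.41 in MI+Val. The MI mice sat in a narrow band inside the lower part of the sham range, where sham mouse 2 at 11.27 lay apart from the other sham mice. The difference was -0.21 (SE 0.12, 95% interval -0.45 to 0.04, adjusted p = 0.349), it was -0.30 without sham mouse 2, and it was 0.19 (-0.06 to 0.45) for MI+Val minus MI. Sec61a1, the pore subunit, ran from 7.29 to 7.72 in sham (median 7.56), from 7.51 to 7.81 in MI (median 7.61), and was 7.59, 7.51, 7.45, 7.55 and 7.76 in MI+Val. The groups overlapped, with a difference of 0.08. Sec61b, the beta subunit, had 0.04 from both of its probes.

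ER-associated degradation returns misfolded proteins to the cytosol, and its 5 measured genes had a median of 0.11, with 4 above 0 and 1 below. Herpud1, a membrane protein that assembles the degradation complex and a gene with both the ERSE-II and the composite element, was the one below. It ran from 11.86 to 12.74 in sham (median 12.30), from 11.97 to 12.42 in MI (median 12.15), and was 12.55, 11.82, 11.92, 11.78 and 12.52 in MI+Val. All MI values lay inside the sham range, and the difference was -0.18 (SE 0.16, 95% interval -0.51 to 0.16, adjusted p = 0.594), with -0.20 from its second probe. It was -0.10 without sham mouse 2 and -0.27 without sham mouse 6.

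Edem2, which trims mannose from misfolded glycoproteins, ran from 7.42 to 7.89 in sham (median 7.76), from 7.67 to 8.30 in MI (median 7.89), and was 8.08, 7.52, 7.68, 7.99 and 7.91 in MI+Val. The groups overlapped, with a difference of 0.23 (SE 0.12, 95% interval -0.03 to 0.49, adjusted p = 0.311), and of 0.14 with the chip as a fixed block. Derl2, a membrane protein of the export channel, ran from 7.18 to 7.64 in sham (median 7.24), from 6.79 to 7.79 in MI (median 7.57), and was 7.80, 7.15, 7.38, 7.43 and 7.54 in MI+Val. The groups overlapped, with MI mouse 2 at 6.79 below every other mouse. The difference was 0.18 (SE 0.15), and 0.32 without that mouse. Syvn1, the ubiquitin ligase of the pathway, had 0.11 (SE 0.11). Sel1l, the partner of Syvn1, had 0.03 from a dim probe (median signal 144.5), and -0.13 from its brighter second probe (351). With that second probe Sel1l would also lie below 0. In MI+Val minus MI all 5 were below 0, from -0.15 (Syvn1) to -0.02 (Derl2), and with the chip as a fixed block 1 of the 5 was above 0. Of all 8236 genes tested, 4029 were below 0. Second bright probes gave values above 0 for Derl2 (0.09), Herpud1 (0.07) and Sel1l (0.02), so the side of 0 depended on the probe for these genes.

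The transcription factors of the response were measured for Xbp1 and Atf4, and of the sensors for Ern1, the kinase and nuclease that splices Xbp1. Xbp1 mRNA, spliced and unspliced forms not being told apart here, ran from 10.49 to 11.21 in sham (median 10.88), from 10.58 to 10.87 in MI (median 10.73), and was 10.54, 10.92, 10.73, 10.92 and 10.74 in MI+Val. The MI mice lay inside the sham range. The difference was -0.13 (SE 0.12, 95% interval -0.38 to 0.12, adjusted p = 0.580), and 0.04 (-0.22 to 0.31) for MI+Val minus MI.

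Atf4, whose protein level is set mainly by translation, ran from 9.19 to 9.86 in sham (median 9.52), from 9.31 to 9.69 in MI (median 9.52), and was 9.59, 9.55, 9.74, 9.58 and 9.91 in MI+Val. The groups overlapped. The difference was -0.01 (SE 0.12, 95% interval -0.27 to 0.24, adjusted p = 0.968), but 0.20 from its second probe (SE 0.15), so the direction depended on the probe. MI+Val minus MI was 0.16 (-0.11 to 0.43), and -0.03 from the second probe. Ern1, read by a dim probe, ran from 5.70 to 6.34 in sham (median 6.09), from 5.55 to 6.22 in MI (median 5.84), and was 6.22, 5.92, 5.41, 6.11 and 5.53 in MI+Val. The groups overlapped, with a difference of -0.18 (SE 0.15, 95% interval -0.49 to 0.13).

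Of the 5 stress effectors, 4 lay above 0 in MI minus sham, with a median of 0.13 where all genes tested had -0.01. In MI+Val minus MI all 5 lay below 0, with a median of -0.17 where all genes tested had 0.004. Both differences use the same MI mice, and opposite signs in them were found for 6147 of all 8236 genes tested. A change of side is therefore not particular to the stress effectors. For each of the 5 genes the 95% interval of both differences included 0. Leaving out MI mouse 1 and MI+Val mouse 1 together gave medians of 0.06 and -0.23, with the same counts above and below 0.

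Ddit3 encodes CHOP, the transcription factor most used as a marker of unresolved ER stress. It ran from 8.14 to 9.11 in sham (median 8.53), from 8.38 to 8.77 in MI (median 8.49), and was 8.77, 8.48, 8.31, 8.04 and 8.28 in MI+Val. All MI values lay inside the sham range. The difference was -0.01 (SE 0.15, 95% interval -0.32 to 0.30, adjusted p = 0.987) and the same from its second probe, and -0.17 (-0.50 to 0.15) for MI+Val minus MI, with -0.19 from the second probe.

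Chac1, an enzyme that breaks down glutathione and a target of Atf4, had the largest difference of the 34 genes and also the largest spread. It ran from 6.96 to 8.22 in sham (median 7.49), from 6.82 to 9.01 in MI (median 8.37), and was 9.53, 6.56, 7.16, 6.87 and 8.46 in MI+Val. The single highest values of both infarcted groups were those of the mouse numbered 1, and 1 MI mouse lay below every sham mouse. The difference was 0.63 (1.54-fold, SE 0.42, 95% interval -0.24 to 1.50, adjusted p = 0.433), and -0.47 (-1.39 to 0.44) for MI+Val minus MI.

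Leaving out 1 mouse at a time moved the Chac1 difference between 0.46 and 0.90 for MI minus sham and between -0.92 and -0.18 for MI+Val minus MI. With the chip as a fixed block it was 0.29 and -0.16. Within chips 1, 2 and 3 MI+Val minus MI was 1.38, -1.51 and -0.51, so its direction was not the same on every chip. The chip 1 value rests on MI+Val mouse 1 alone, and those of chips 2 and 3 on 1 MI array each. With this spread, the interval of MI+Val minus MI covered changes of either sign.

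Trib3, a pseudokinase induced by Ddit3 and Atf4, ran from 5.86 to 6.71 in sham (median 6.31), from 5.84 to 6.89 in MI (median 6.48), and was 6.45, 5.85, 6.16, 6.18 and 6.23 in MI+Val. The groups overlapped, with a difference of 0.13 (SE 0.17, 95% interval -0.21 to 0.48) and of -0.28 (-0.65 to 0.08) for MI+Val minus MI. MI minus sham was 0.04 without sham mouse 1 and 0.25 without MI mouse 6, and within chips 1, 2 and 3 it was 0.80, -0.26 and -0.45.

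Ppp1r15a, the phosphatase subunit that lets translation resume, ran from 7.41 to 8.03 in sham (median 7.73), from 7.69 to 8.31 in MI (median 7.96), and was 7.80, 7.46, 7.74, 7.86 and 8.31 in MI+Val. The groups overlapped, and MI lay above sham on average by 0.26 (SE 0.14, 95% interval -0.03 to 0.56, adjusted p = 0.320), and by 0.56, 0.15 and 0.36 within chips 1, 2 and 3. MI+Val minus MI was -0.17 (-0.48 to 0.14). Asns, asparagine synthetase, had 0.11 (SE 0.12) and -0.12 (SE 0.12).

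**Figure D4:**
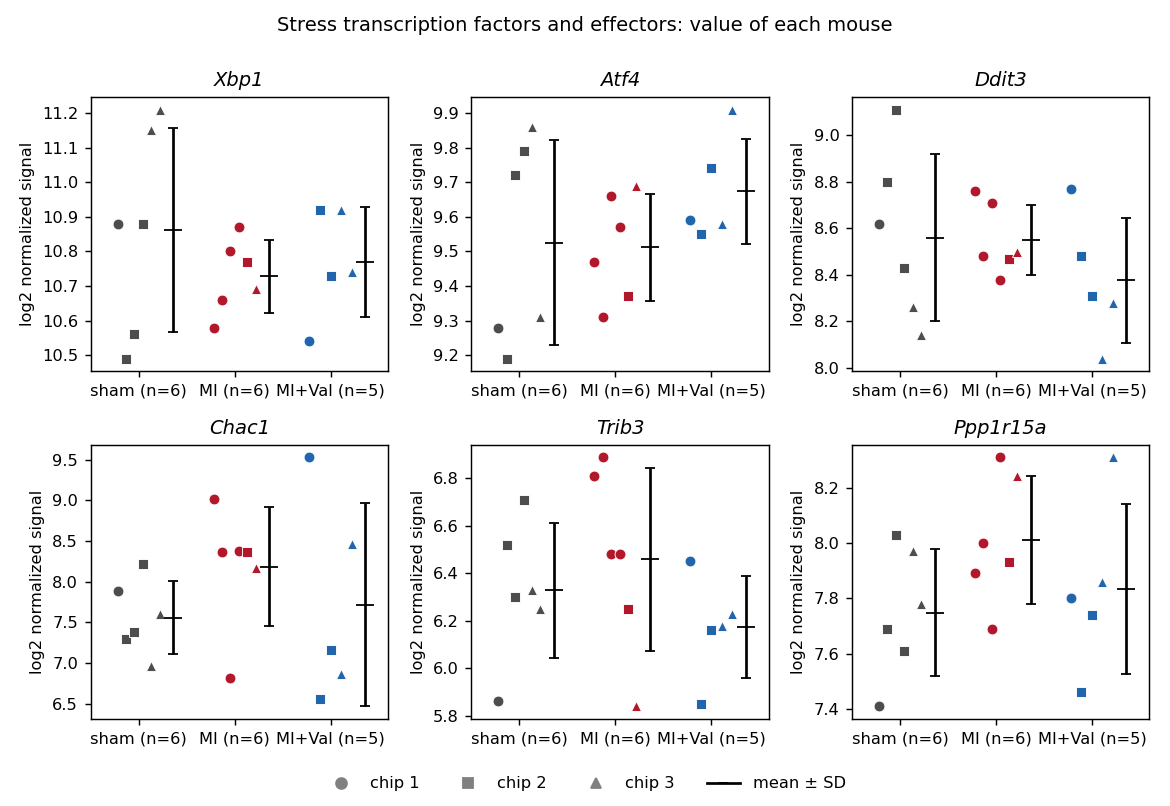
Log2 normalized signal (y axis) of Xbp1, Atf4 and 4 stress effectors in each mouse, by group (x axis), with the chip as the marker shape and the mean ± SD as bars. The groups overlap for all 6 genes, and for Chac1 MI+Val mouse 1 (9.53) and MI mouse 1 (9.01), both on chip 1, are the highest of all mice.

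Genes grouped by the promoter letters shown above gave the following differences. The 7 measured genes with an ERSE had a median of -0.03 in MI minus sham (range -0.21 to 0.11, 3 above 0 and 4 below) and of 0.01 in MI+Val minus MI (range -0.17 to 0.16). The 5 measured genes with the composite element had a median of 0.13 (range -0.18 to 0.63, 4 above 0 and 1 below) and of -0.12 in MI+Val minus MI (range -0.47 to -0.04). Of these 5, 3 are stress effectors, so the medians overlap with those of the effectors.

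Mice of the same group differed from each other in 14 folding genes. Over these measured chaperones, lectins, isomerases and oxidases, the median deviation of a mouse from its group mean was -0.27 in sham mouse 2, -0.22 in MI mouse 1, -0.16 in MI+Val mouse 1 and -0.16 in MI mouse 2, and between -0.08 and 0.18 in the other 13 mice. Over the 14 measured other folding factors, a list described further on, the same measure was -0.114 in sham mouse 2, -0.018 in MI mouse 1, 0.016 in MI+Val mouse 1 and 0.055 in MI mouse 2. Sham mouse 2 was the lowest of its group for 10 of the 14 chaperones, lectins, isomerases and oxidases, and MI mouse 1 for 7 of 14. How often each mouse was the lowest over all genes tested was not counted. Array weights, estimated over all genes tested and low for arrays that depart more from their group, reached 1.6 (MI+Val mouse 3). They were 0.49 in MI mouse 1, 0.59 in sham mouse 2, 0.65 in MI+Val mouse 1 and 1.3 in MI mouse 2. Whether these deviations are particular to folding genes was not tested.

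In MI mouse 1 and MI+Val mouse 1, 4 of the 5 stress effectors lay above the group mean, with median deviations of 0.26 and 0.28, the highest of the 17 mice, whereas sham mouse 2 had -0.06. Both mice were on chip 1, and MI mouse 1 had the lowest median signal (90) and the fewest detected probes (13929) of all arrays. Over all genes tested, the deviations of MI mouse 1 and MI+Val mouse 1 from their group means correlated (r = 0.43). What these mice share was therefore not limited to the genes described here. Without these 2 mice, 0 of the 34 genes were called in MI vs sham and in MI+Val vs MI, and the median of the chaperones in MI minus sham went from -0.12 to -0.04. Without sham mouse 2 that median was -0.18 and the secretory machinery had 7 genes above 0 and 14 below.

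**Figure D5:**
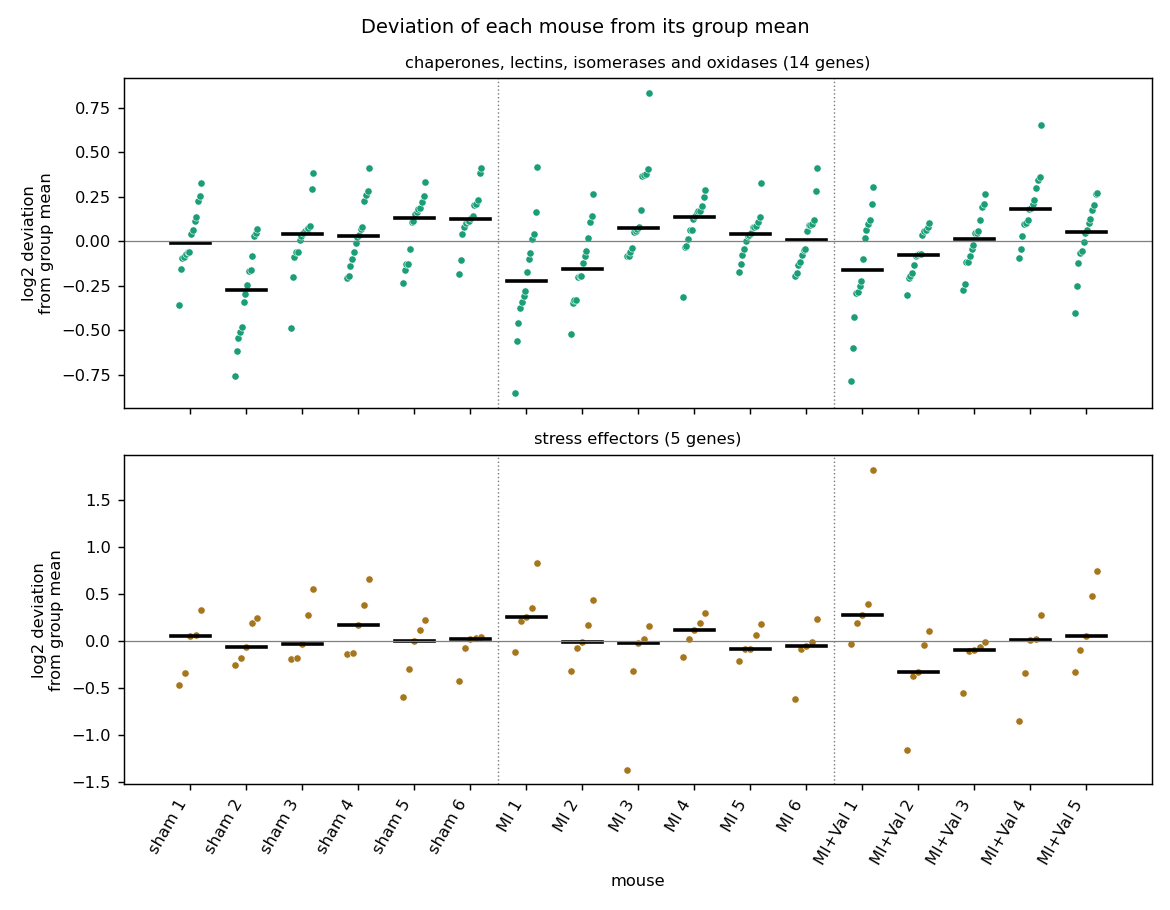
Log2 deviation from the group mean (y axis) of each mouse (x axis) for 14 chaperones, lectins, isomerases and oxidases (top) and for 5 stress effectors (bottom). Each point is 1 gene and the bars are medians, which reach -0.27 in sham mouse 2 and -0.22 in MI mouse 1 in the top panel, and 0.26 in MI mouse 1 and 0.28 in MI+Val mouse 1 in the bottom panel.

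Directions were compared between the bead signals and the authors' log2 values. The direction of MI minus sham was the same in both for 34 of 34 genes, and that of MI+Val minus MI for 33 of 34. The difference between MI and sham was smaller in size in the authors' values for 26 of the 34. Of the 10 genes with more than 1 bright probe, 3 (Atf4, Dnajb9 and Sel1l) had probes on either side of 0 in MI minus sham.

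Around the 34 genes, 98 measured genes of 6 further lists of the secretory pathway and stress response were examined, and 1 was called between MI and sham, against 5.63% of all genes tested. The lists were glycosylation and glycan trimming (11 measured, median 0.01), signal recognition and signal peptidase (15, -0.01), other folding factors (14, -0.02), other degradation genes (13, -0.002), transport from ER to Golgi (19, -0.07) and other genes of the unfolded protein and integrated stress response (26, -0.02). Over the 98 genes the median was -0.01, with 45 above 0 and 53 below, and 13 had an unadjusted p under 0.05, against 19.7% of all genes.

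The called gene was Nupr1, a stress-induced nuclear protein and a target of Atf4. Its log2 value ran from 7.30 to 8.06 in sham (median 7.71), from 8.27 to 9.11 in MI (median 8.72) and from 7.63 to 8.81 in MI+Val mice (median 8.12). MI mice lay above all sham mice, and MI+Val mice overlapped both groups. The difference was 1.07 (SE 0.19, adjusted p = 0.00260 in limma; 1.00 at 0.00806 with the chip as a fixed block), and -0.64 (SE 0.20, unadjusted p = 0.00454, adjusted p = 0.321) for MI+Val minus MI. Nupr1 is also on a list that the study chose on these samples, so its direction is not independent evidence.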

How the data were processed

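For 45281 probes the authors deposited an intensity (mean signal over beads, background not subtracted) and the scanner software's detection p-value. A second table the authors deposited holds log2 values, made by a variance stabilizing transformation with robust spline normalization, for which the submitters' processing notes name lumi and R 3.0.1.

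Under R 4.3.3, limma 3.58.1 (neqc) estimated background through the detection p-values and put the arrays on a common log2 scale by quantile normalization, with an offset of 16. The offset and the background correction change dim probes most. Probes with 1 gene symbol (34885 of 45281, with several for 18 and none for 10378) were kept where the 33rd percentile of signal reached the methods' minimum (11897 probes), and each of 8236 genes was represented by its probe of largest interquartile range. One linear model of the 3 groups with empirical Bayes moderation gave the F test and the 3 comparisons, with Benjamini-Hochberg adjustment over 8236 genes and no covariate. Intervals are 95% intervals of the moderated fit. The model was tested on simulated data. Groups, replicate numbers and chips came from the labels, and each array is a separate mouse.

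The genes and lists were chosen with earlier results of these data known. Values per mouse were given for genes called in any comparison, for Hspa5, Hsp90b1, Xbp1, Atf4, Ddit3 and Manf, and for up to 3 uncalled genes per role with the largest difference; others are summarised, and of each further list up to 3 called genes were named. The methods' variance filter was left out. Alternatives changed the background correction, scaling, filters, probe per gene, blocks, weights, samples and test, and left out each mouse in turn; leaving out MI mouse 1 and MI+Val mouse 1 together was chosen after seeing the data. Promoter windows were RefSeq (GRCm38.p6). Plots used Python 3.11.15 and matplotlib 3.10.9.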

Additional observations from a re-analysis of the deposited data

Results flagged for a closer look

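In 9 of 102 groups of mice tested (34 genes in 3 groups), the highest or lowest mouse stood further from the rest than Dixon's 95% limit allows, and chance flags about 1 in 20 groups. Low values were those of Hspa5 in MI mouse 1 (4.96, next 5.77), Pdia3 in MI mouse 1 (10.09, next 10.57), Calr in MI+Val mouse 1 (7.27, next 8.09), Ssr1 in MI+Val mouse 1 (5.62, next 6.16), Sec61b in MI+Val mouse 5 (6.89, next 7.25) and Derl2 in MI mouse 2 (6.79, next 7.52). High values were those of Sdf2l1 in MI mouse 3 (7.04, next 6.27), Ssr4 in MI mouse 1 (11.45, next 11.15) and Derl2 in sham mouse 4 (7.64, next 7.29). MI mouse 1 accounts for 3 of the 9 and MI+Val mouse 1 for 2.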

How the results depend on the processing

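The count of called genes between MI and sham, 0 of 34, became 1 (P4hb) with no background correction, the authors' log2 values, the mean of a gene's probes, array weights and the methods' t-test both after Benjamini-Hochberg adjustment and at its own threshold. It stayed at 0 with scaling to the 75th percentile, other probe filters, the brightest probe, the chip as a block and 2 groups only. The F test count, 0, became 1 with no background correction, the authors' values and array weights. For P4hb, adjusted p was 0.0496 with the mean of probes (difference 0.27), 0.0304 with array weights (0.30) and 0.0358 with the methods' t-test. The counts for MI+Val against MI and against sham were 0 under all alternatives. Leaving out 1 mouse at a time gave 0 calls in each of these counts, with adjusted p for P4hb above 0.05 in each. Over all genes, the 464 calls between MI and sham became 187 and the 395 of the F test 193 with the chip as a fixed block; they were 259 without sham mouse 5, 304 without MI mouse 4 and 309 without MI mouse 1, and 226 in the F test without MI mouse 4. The 0 calls over all genes between MI+Val and MI became 9 with no background correction and with the authors' values, 7 with array weights and 14 without MI+Val mouse 5, none of them among the 34. The methods' t-test at its own threshold called 153 genes between MI+Val and MI and 107 between MI+Val and sham, and 0 of the 34 in each.

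Some differences turned sign. With the chip as a fixed block these were, over the 34 genes, Hspa5 (-0.02225), Hsp90b1 (-0.0043), Txndc5 (0.002045), Herpud1 (0.003932), Ern1 (0.04131) and Ssr4 (0.05279) in MI+Val minus MI and Atf4 (0.04046), Calr (0.07026), Creld2 (0.01483) and Ssr4 (-0.02671) in MI minus sham. Of the other alternatives, those given here are for the 19 genes named by the rule. Without the filter on dim probes they were Sec61a1 (-0.07381, and 0.14 in MI+Val minus MI) and Edem2 (-0.07128), each then read by a dimmer probe that had failed the filter, detected on 0 and 9 arrays. Herpud1 turned with the brightest probe (0.07028) and the mean of probes (0.01394), Derl2 (0.03181) and Atf4 (0.09251) with the mean of probes, and Ddit3 (0.01956) with array weights. Leaving out 1 mouse, or MI mouse 1 and MI+Val mouse 1 together, MI+Val minus MI ranged from -0.07502 to 0.2448 for Hspa5, -0.03478 to 0.2226 for Sdf2l1, -0.1737 to 0.04268 for Herpud1, -0.1606 to 0.05583 for Derl2 and -0.14 to 0.06222 for Ern1, and MI minus sham from -0.08093 to 0.0523 for Atf4 and -0.09266 to 0.1016 for Ddit3. The causes were not tested. With the replicate number as a block, 0 of 34 genes were called. For arrays that share a number, the correlation of their deviations from group means was taken over all genes tested. It lay above 0.1 in 4 of 16 pairs, and was -0.20 for sham mouse 3 with MI mouse 3 and -0.14 for sham mouse 3 with MI+Val mouse 3. The highest was MI mouse 1 with MI+Val mouse 1 (r = 0.43). Sham mouse 1 had 0.16 with MI mouse 1 and 0.13 with MI+Val mouse 1, all on chip 1, and MI mouse 2 had 0.11 with sham mouse 2. The numbers were treated as names only. The number of arrays limits the precision, with standard errors of MI minus sham from 0.08 (Erp29) to 0.42 (Chac1).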
